A study of Arabidopsis thaliana with 305 samples.

Results

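The 150 genes described here were those with the lowest transcript levels 4 h after infiltration with bacteria delivering AvrRpm1, relative to the empty-vector strain, in leaves of Arabidopsis thaliana. They were chosen by the count of each gene scaled to its replicate's total (CPM, the count divided by the total and multiplied by 1000000). Of 25320 genes in the deposited table, 10224 averaged at least 10 CPM over the 12 empty-vector (EV) replicates at 4 h, and these were ranked by the mean log2(CPM + 1) of the 12 AvrRpm1 replicates minus that of the 12 EV replicates at the same time. The ranking used those 24 replicates alone, so values at 4 h against EV are given as a description and every test rests on other comparisons. The difference in mean log2(CPM + 1) ran from -2.39 for AT1G65486 and -2.36 for AT5G44575 to -1.327 for LTP2, AT1G61255 and AT5G44020, the last 3 genes inside the threshold. The first 3 outside it, AT1G02460, GUN4 and CYP71B26, had -1.325, -1.324 and -1.322. Without replicate 1, 2 or 3 of every group, the same rule kept 91, 76 and 87 of the 150, so the membership depends on single replicates.

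RNA was sequenced from leaves of 6-week-old plants of 4 genotypes: the Col-0 wild type, nrg1 (the nrg1.1 nrg1.2 double mutant), adr1 (the adr1 triple mutant) and helperless, which the series text lists as the fourth genotype and which lacks both families of RNL helper receptors. Leaves were sampled untreated (T0) and at 0.5 h, 4 h and 8 h after infiltration with Pseudomonas fluorescens Pf0-1, named in the series text as Pf0, carrying an empty vector or 1 of the effectors AvrRps4, AvrRpt2 and AvrRpm1. The labels' protocol names Pseudomonas syringae strains as well, for growth curves. Each of the 52 groups had 3 replicates, so a condition pooled over the genotypes had 12. The labels do not say whether replicates came from separate plants, so p-values measure only the spread between these samples.

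Arabidopsis leaves answer conserved bacterial molecules through receptors at the cell surface, which sets off pattern-triggered immunity, and the empty-vector strain sets off this layer without an effector. AvrRpm1, AvrRpt2 and AvrRps4 are recognised inside the cell by the receptors RPM1, RPS2 and the RRS1-RPS4 pair, which adds effector-triggered immunity. RNL proteins of the ADR1 and NRG1 families relay signals from many such receptors. The series text describes AvrRps4 recognition as fully, AvrRpt2 recognition as partially and AvrRpm1 recognition as not dependent on RNL helpers.

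The 305 libraries held between 3128554 and 23257821 counts (median 5477113), and the 156 replicates, after summing the libraries that shared a group and replicate number, between 4276389 and 28926563. As a check of the genotypes, counts of ADR1-L1 were divided by those of ADR1-L2, and this ratio was 1.15 to 5.56 in 137 Col-0 and nrg1 libraries and 32.6 to 659 in 135 adr1 and helperless libraries, but 10 of the infiltrated libraries went against their genotype label. The ratio cannot tell Col-0 from nrg1 or adr1 from helperless, and those labels were not checked. At T0 the ratio was 1.51 to 3.67 in 12 Col-0 and nrg1 libraries and 2.39 to 42.2 in 11 adr1 and helperless libraries, ranges that overlap, so it does not check the genotype of untreated leaves. Of the 10 libraries that went against their label, 7 belong to replicate 3 of the EV samples taken at 8 h. These 7 were 2 each from Col-0, helperless and adr1, and 1 from nrg1. The others were 1 library of nrg1 replicate 3 with AvrRpm1 at 4 h and the 2 libraries of adr1 replicate 2 with AvrRpm1 at 8 h. Counts of genes called at 8 h are therefore also given without them. The 5 mesophyll markers summed to 49236 to 60030 CPM at T0 and to 718 to 4790 CPM under EV at 8 h, with none at 0. In whole leaf tissue, fewer cells of a type and less RNA per cell cannot be told apart.

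Promoter windows are shown for 3 of the 150 genes that recur in the results, all 3 with the motif marked below. Other genes that recur are not shown. WRKY53 codes for a WRKY transcription factor of defence and leaf senescence and CRK5 for a cysteine-rich receptor-like kinase. OPT6 codes for an oligopeptide transporter that can carry glutathione. Each window holds the 250 bases before the annotated gene start in RefSeq TAIR10.1, read 5′ to 3′ on the gene's minus strand, with no other annotated gene inside it. Capitals mark the W-box core TTGACC, which WRKY factors bind, or its reverse complement GGTCAA. The windows lie at chr4:12393983-12394232 for WRKY53, chr4:12120221-12120470 for CRK5 and chr4:13836662-13836911 for OPT6.
WRKY53: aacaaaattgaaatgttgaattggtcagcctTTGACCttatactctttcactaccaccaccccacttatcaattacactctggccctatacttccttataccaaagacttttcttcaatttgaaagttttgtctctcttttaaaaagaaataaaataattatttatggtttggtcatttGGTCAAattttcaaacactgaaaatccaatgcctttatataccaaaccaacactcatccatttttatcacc
CRK5: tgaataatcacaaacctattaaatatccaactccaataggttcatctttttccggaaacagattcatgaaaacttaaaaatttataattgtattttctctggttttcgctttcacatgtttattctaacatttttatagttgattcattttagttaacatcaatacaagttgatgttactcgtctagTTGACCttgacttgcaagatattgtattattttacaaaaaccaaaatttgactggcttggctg
OPT6: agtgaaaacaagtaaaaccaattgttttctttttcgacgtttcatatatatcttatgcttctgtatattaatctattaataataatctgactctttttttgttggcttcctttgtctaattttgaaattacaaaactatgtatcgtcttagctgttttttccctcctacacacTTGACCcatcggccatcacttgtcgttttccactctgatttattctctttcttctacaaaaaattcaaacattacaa
The WRKY53 window held 2 matches, whose first bases lay 219 and 71 bases before the gene start. CRK5 had 1, 63 bases before it, and OPT6 had 1, 77 bases before it. A W-box core on either strand occurred in 23 of the 150 windows (15.3%), against 13.3% of the windows of genes past the 10 CPM minimum and 12.3% of all windows, so the motif was about as frequent among these genes as elsewhere. The I-box core GATAAG was in 19.3% of the 150 windows, 12.8% of those past the minimum and 12.3% of all. The site II motif TGGGCC was in 6.0%, 17.8% and 14.4%. These shares describe letters in a window and carry no test.

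The 150 genes lay on all 5 chromosomes, and 19 of them had another of the 150 within 10000 bases. The gene ranked lowest, AT1G65486, lies on chromosome 1 from base 24349399 to 24350524, with AT1G65490 and AT1G65500 following it on the same strand. A second trio, AT5G44572, AT5G44574 and AT5G44575, covers chromosome 5 from base 17968092 to 17975120, and the first pair of it overlaps by 133 bases, so their reads cannot be fully separated. RefSeq describes AT1G65486, AT1G65490, AT1G65500 and AT5G44575 as uncharacterized proteins. Of the 150 genes, 17 overlapped another gene with counts, WRKY53 and OPT6 among them on the opposite strand, and whether counting used strand is not given in the sources used here.

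At 8 h, in samples that the ranking did not use, 110 of the 150 genes were lower with AvrRpm1 than with EV and 3 were higher. Calls were made with edgeR's quasi-likelihood test on counts scaled by trimmed mean (TMM), at a Benjamini-Hochberg adjusted p under 0.05 over 19687 genes and a log2 fold change of at least 1. In the same comparison, 17.2% of all genes tested passed as lower and 21.2% as higher. Only 10224 genes passed the 10 CPM minimum asked of the 150. The shares of all genes, here and below, thus include genes of lower level, which have less room to fall. The median log2 fold change of the 150 was -1.79, against 0.02 for all genes. With counts scaled to the library total instead, the median of all genes moved by -0.49, the share of lower genes among all calls went from 44.9% to 68.9%, and 122 of the 150 passed as lower and 2 as higher. All 12 AvrRpm1 replicates lay below all 12 EV replicates at 8 h for 91 of the 150 genes in CPM, against 25.5% of all genes, and above them for none, against 8.5%. They lay below for 76 of the 150 in TMM-scaled CPM, against 11.3%.

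**Figure D1:**
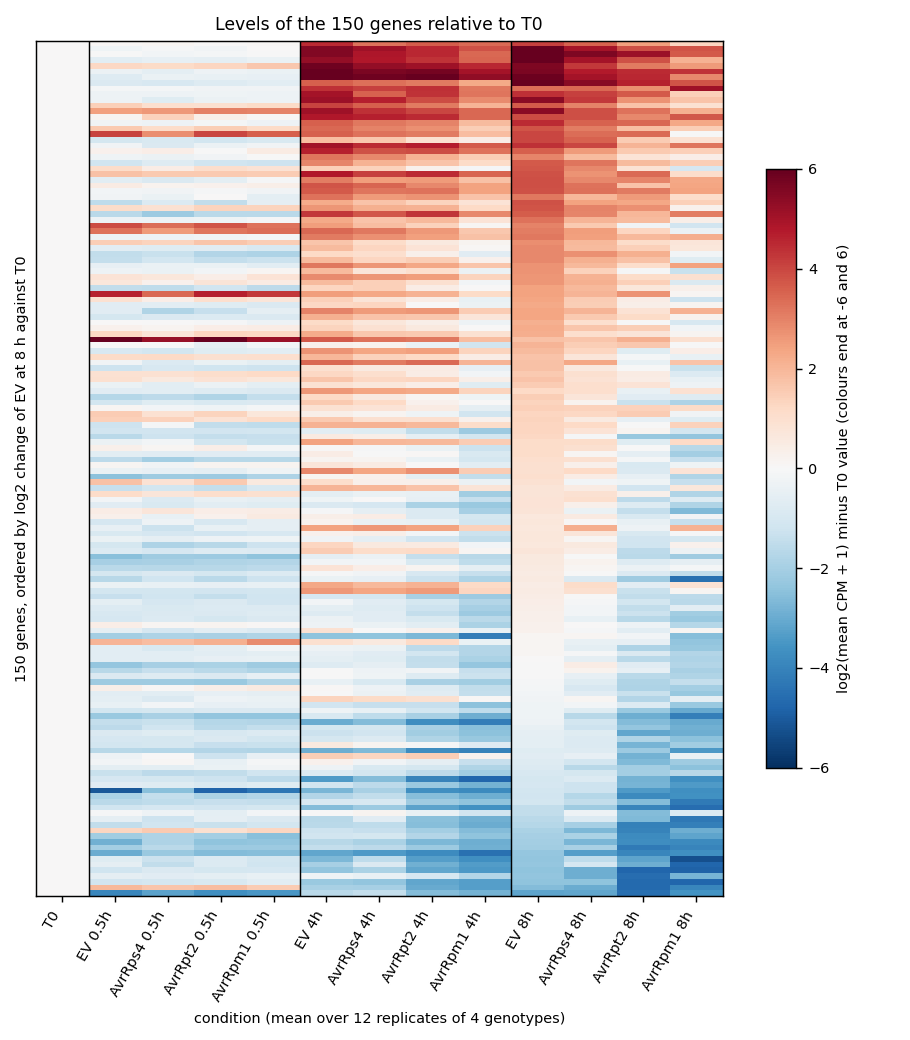
Each row is 1 of the 150 genes and each column 1 of 13 conditions, with colour for the log2 of mean CPM + 1 (n = 12 replicates) minus that at T0. Rows are ordered by the log2 fold change of EV at 8 h against T0. Most rows that turn to higher values in the EV columns at 4 h and 8 h return towards or below the T0 level in the AvrRpm1 columns of those times. At 4 h the lower values with AvrRpm1 than with EV are fixed by the selection, which used those replicates.

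Receptor kinases and receptor proteins made up 17 of the 150, and 15 of them were lower with AvrRpm1 than with EV at 8 h and 1 was higher. In the whole set 110 of 150 were lower and 3 higher, and among all genes 17.2% and 21.2%. RLK (AT2G37710), a lectin receptor kinase, had 68.8 to 267 CPM (median 123.4) at T0, 467 to 1379 CPM (median 817) with EV at 8 h and 36.1 to 149 CPM (median 67.8) with AvrRpm1 at 8 h. The AvrRpm1 and EV replicates did not overlap. The log2 fold change was -3.11 ± 0.27 (SE; edgeR adjusted p = 3.67e-19). With AvrRpt2 at 8 h RLK had 164 to 894 CPM (median 286), above all AvrRpm1 replicates but overlapping those of EV. Its log2 fold change against EV was -0.81 ± 0.25, under the size asked of a call with TMM scaling.

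Cysteine-rich receptor-like kinases (CRKs), a large plant family with roles in stress and defence signalling, contributed 5 genes. CRK5 had 38.5 to 69.1 CPM (median 49.9) with EV at 8 h, 5.75 to 30.3 CPM (median 11.2) with AvrRpt2 and 0.844 to 5.74 CPM (median 2.92) with AvrRpm1. The AvrRpm1 range lay below the EV range, and below that of AvrRpt2 by a narrow gap. The log2 fold change of CRK5 with AvrRpm1 was -3.52 ± 0.23 (edgeR adjusted p = 5.97e-26). CRK22 fell by 3.20 on the log2 scale with AvrRpm1, CRK21 by 2.69 and CRK15 by 1.73. CRK42 came just short of the size asked of a call (edgeR adjusted p = 0.000717), and was the 1 receptor gene lower with EV at 8 h than at T0. Reads shared between close members of such a family can be split by the counting, which makes single CRK values less certain.

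AT5G24080, a gene of the protein kinase superfamily, went the other way at 8 h. It had 7.66 to 43.7 CPM (median 20.9) with EV and 1.01 to 21.3 CPM (median 7.30) with AvrRpm1 at 4 h, which placed it among the 150. At 8 h it had 4.89 to 19.5 CPM (median 11.7) with EV and 16.7 to 70.9 CPM (median 36.2) with AvrRpm1, ranges that overlapped slightly. The log2 fold change at 8 h was 2.25 ± 0.39 (edgeR adjusted p = 1.97e-07). With AvrRpt2 at 8 h, AT5G24080 had 1.57 to 19.9 CPM and a log2 fold change of -0.21 ± 0.38 against EV.

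The receptor group also separated the effectors AvrRpm1 and AvrRpt2. In the direct comparison at 8 h, 50 of the 150 genes were lower with AvrRpm1 than with AvrRpt2 and 24 were higher, where 7.01% and 14.3% of all genes passed in those directions. Of the 17 receptor genes, 13 were lower with AvrRpm1 and 1, AT5G24080, was higher. RLK differed by -2.30 ± 0.26 on the log2 scale (edgeR adjusted p = 9.12e-13), CRK22 by -2.51 ± 0.21 and CRK5 by -1.96 ± 0.23. CRK15 differed by -0.40 ± 0.22 and CRK42 by 0.79 ± 0.29, neither of them a call. All 12 AvrRpm1 replicates lay below all 12 AvrRpt2 replicates for 15 of the 150 genes, against 6.32% of all genes, and 7 of the 15 were receptor genes. AT1G05700, a leucine-rich repeat kinase gene, had -1.63 ± 0.57 (edgeR adjusted p = 0.0119), a call that was lost without any 1 of the 3 replicates.

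**Figure D2:**
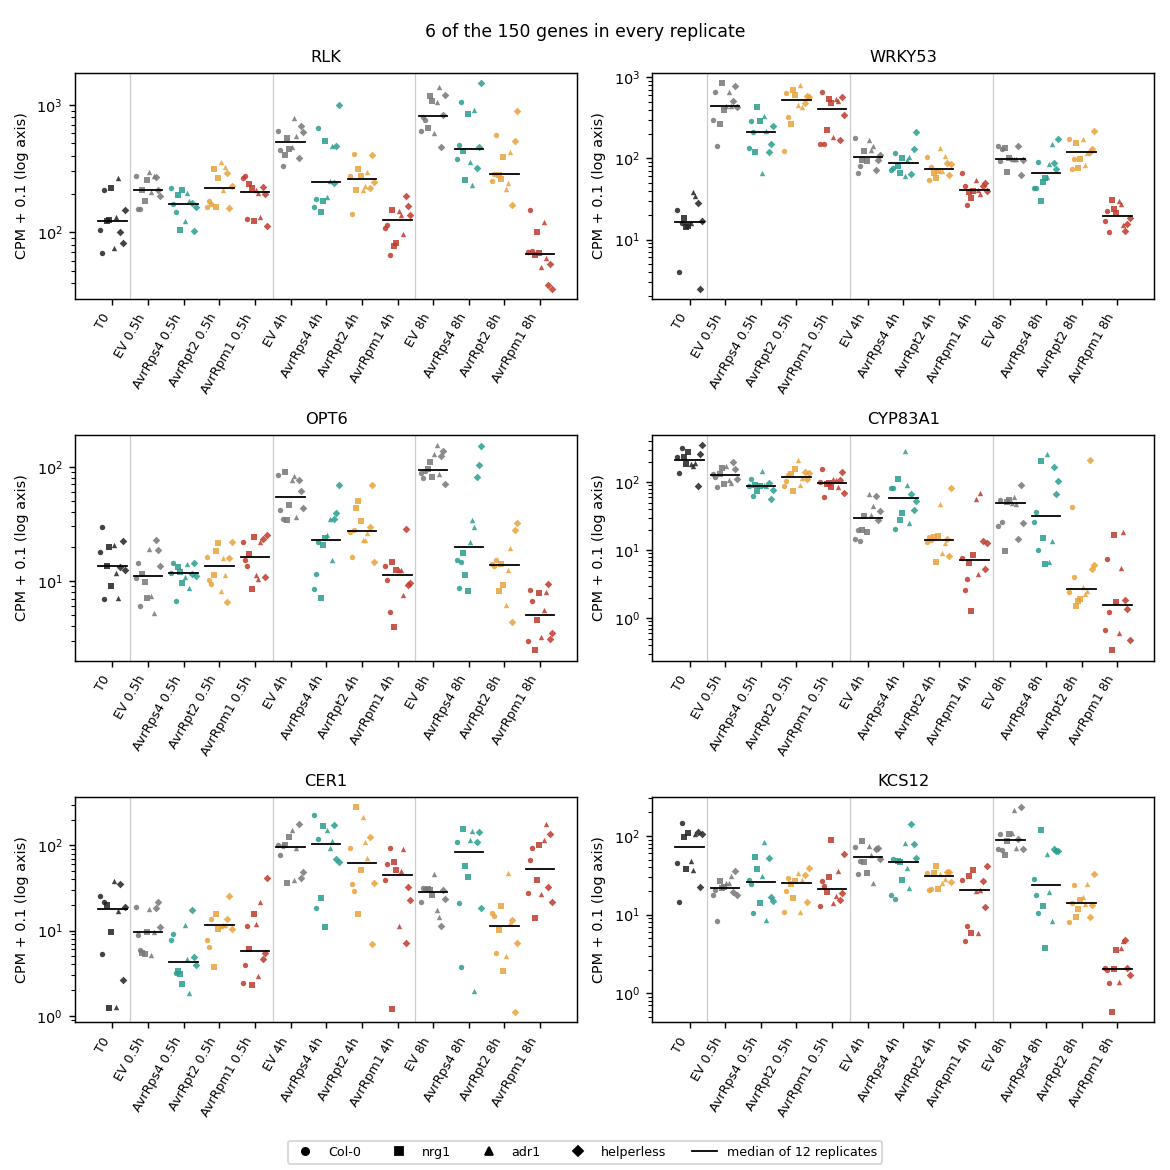
CPM + 0.1 on a log axis for 6 of the 150 genes (RLK, WRKY53, OPT6, CYP83A1, CER1 and KCS12) in 13 conditions. Each point is 1 replicate, the marker gives the genotype and the line is the median of 12 replicates. RLK, OPT6 and KCS12 reach their lowest medians with AvrRpm1 at 8 h, WRKY53 peaks 0.5 h after EV, and CER1 has a higher median with AvrRpm1 than with EV at 8 h.

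Among 16 transcription regulators, 11 were lower and none was higher with AvrRpm1 than with EV at 8 h. Their share of lower genes was near that of the whole set (110 of 150), where 17.2% of all genes were lower and 21.2% higher. ZF1 (AT5G67450), a zinc finger repressor of stress responses, had 38.6 to 77.3 CPM (median 51.0) with EV at 8 h and 0.945 to 3.63 CPM (median 2.09) with AvrRpm1, and its log2 fold change was -4.03 ± 0.35 (edgeR adjusted p = 1.06e-18). With AvrRpt2 it had 14.3 to 79.0 CPM (median 30.6), overlapping EV, and -0.20 ± 0.30. The direct difference between AvrRpm1 and AvrRpt2 was -3.83 ± 0.35 (edgeR adjusted p = 1.28e-16), and the 2 ranges did not overlap.

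WRKY53 behaved in the same way at 8 h. It had 62.0 to 143 CPM (median 99.3) with EV, 72.9 to 219 CPM (median 119) with AvrRpt2 and 12.4 to 30.5 CPM (median 19.5) with AvrRpm1. The AvrRpm1 replicates lay below all others of these 3 conditions. WRKY53 fell by 1.89 on the log2 scale against EV and by 2.60 against AvrRpt2 (edgeR adjusted p = 7.08e-09 and 1.02e-12), while AvrRpt2 against EV gave 0.71 ± 0.28. WRKY30, another defence-related WRKY gene, had 9.35 to 42.5 CPM with EV and 1.31 to 24.8 CPM with AvrRpm1 at 8 h, and its log2 fold change was -0.40 ± 0.40. BBX15, a B-box zinc finger gene, was lower with both AvrRpm1 (-2.17 ± 0.42) and AvrRpt2 (-1.94 ± 0.42), and the direct difference was -0.23 ± 0.41.

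Of 20 transporters and channels, 16 were lower with AvrRpm1 than with EV at 8 h and none was higher. The share of lower genes was again near that of the whole set (110 of 150), against 17.2% lower and 21.2% higher among all genes. OPT6 had 71.0 to 154 CPM (median 94.2) with EV at 8 h, 4.25 to 32.1 CPM (median 13.6) with AvrRpt2 and 2.36 to 9.23 CPM (median 4.94) with AvrRpm1. Both effector ranges lay below the EV range. The log2 fold change was -3.79 ± 0.28 with AvrRpm1 (edgeR adjusted p = 1.65e-22) and -2.42 ± 0.27 with AvrRpt2. PTR3, a peptide transporter, had 203 to 276 CPM (median 239) with EV, 37.6 to 173 CPM (median 64.8) with AvrRpt2 and 17.6 to 39.1 CPM (median 25.4) with AvrRpm1. It fell by 2.65 and 1.23 on the log2 scale with AvrRpm1 and AvrRpt2, and AvrRpm1 was lower than AvrRpt2 by 1.42 ± 0.18.

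Sugar carriers were among the transporters. PMT6, a transporter of polyols and monosaccharides, had 12.5 to 61.7 CPM (median 21.5) at T0 and 879 to 1448 CPM (median 1089) with EV at 8 h, and 70.2 to 161 CPM (median 109) with AvrRpm1, a log2 fold change of -2.81 ± 0.28. STP4, a hexose and proton symporter, fell by 1.54 with AvrRpm1 and had -0.95 ± 0.20 with AvrRpt2. SWEET11, which exports sucrose for phloem loading, had 57.0 to 204 CPM with EV, 58.5 to 152 CPM with AvrRpt2 and 18.6 to 43.5 CPM with AvrRpm1 at 8 h. Its AvrRpm1 replicates lay below all others, with -1.51 ± 0.19 against EV and -1.36 ± 0.19 against AvrRpt2 (edgeR adjusted p = 9.99e-10), and AvrRpt2 against EV gave -0.15 ± 0.18. NRT2.5, a high-affinity nitrate transporter, was lower with AvrRpm1 (-2.96 ± 0.50), and its EV and AvrRpm1 ranges overlapped at 9.45 to 74.7 and 0.264 to 15.4 CPM. GAMMA-TIP, a tonoplast aquaporin, was lower with AvrRpt2 (-1.98 ± 0.31) and AvrRpm1 (-1.18 ± 0.31), and the latter call was lost without replicate 1 (-0.66). Of the 16 aquaporins tested, 6 were lower with AvrRpm1 and 13 with AvrRpt2, where 17.2% and 15.2% of all genes passed as lower.

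Cell wall genes made up 12 of the 150, with 9 lower and none higher with AvrRpm1 at 8 h. That share of lower genes was near the one of the whole set (110 of 150), against 17.2% lower and 21.2% higher among all genes. Of the 12, 4 belong to the pectin methylesterase family, which alters pectin in the wall. ATPMEPCRB had 64.6 to 161 CPM (median 101) with EV, 14.1 to 69.5 CPM (median 23.7) with AvrRpt2 and 4.78 to 14.7 CPM (median 9.21) with AvrRpm1, and its log2 fold change with AvrRpm1 was -3.06 ± 0.35 (edgeR adjusted p = 1.98e-13). AT2G26440 had 122 to 448 CPM with EV, 45.7 to 292 CPM with AvrRpt2 and 7.20 to 52.2 CPM with AvrRpm1. It fell by 3.12 with AvrRpm1 and by 2.52 against AvrRpt2, while AvrRpt2 against EV gave -0.60 ± 0.28. AT5G09760 and AT3G43270 were lower with both effectors, by 2.40 and 1.27 with AvrRpm1 and by 1.60 and 1.16 with AvrRpt2.

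Aliphatic glucosinolates are sulfur-rich defence compounds made from chain-elongated methionine, and 3 genes of this pathway were among the 150: MAM1 acts in chain elongation, CYP79F1 makes the aldoximes and CYP83A1 oxidises them. CYP83A1 had 86.6 to 348 CPM (median 211) at T0, 9.70 to 89.3 CPM (median 49.0) with EV at 8 h and 0.236 to 18.4 CPM (median 1.45) with AvrRpm1. The T0 and EV ranges overlapped at their edges, as did those of EV and AvrRpm1. With AvrRpt2 at 8 h, CYP83A1 had 1.42 to 210 CPM (median 2.57), where helperless replicate 1 had 210 CPM and Col-0 replicate 2 had 43.2 CPM while the other replicates had at most 5.88 CPM. The same 2 replicates were the highest for MAM1 (225 and 60.9 CPM) and CYP79F1 (134 and 34.9 CPM).

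The 3 genes were lower with EV at 8 h than at T0, by 2.702 for CYP83A1, 1.99 for MAM1 and 2.72 for CYP79F1 on the log2 scale, and lower again with AvrRpm1, by 3.02, 2.52 and 2.93 (edgeR adjusted p = 5.86e-08, 5.23e-06 and 2.37e-05). AvrRpt2 lowered them by 1.82, 2.23 and 2.37 against EV. The direct difference between AvrRpm1 and AvrRpt2 was -0.29 ± 0.52 for MAM1 and -0.56 ± 0.79 for CYP79F1, not calls, and -1.19 ± 0.50 for CYP83A1 (edgeR adjusted p = 0.036), a call lost in 5 of 11 alternative settings. Without replicate 1 the CYP83A1 difference was -0.14 (edgeR adjusted p = 0.839), so it rests on that replicate. CYP79F1 has a near-identical neighbour, CYP79F2, with which reads may be shared. Of 15 tested genes of aliphatic glucosinolate synthesis, these 3 included, 14 were lower and 1 higher with EV at 8 h than at T0. With AvrRpm1 against EV at 8 h, 10 were lower and 1 higher. Among all genes, 24.4% were lower and 21.0% higher with EV than at T0, and 17.2% and 21.2% with AvrRpm1 against EV. Other cytochrome P450 genes among the 150 include CYP71B2, which had 38.5 to 68.2 CPM with EV and 0.914 to 4.92 CPM with AvrRpm1 at 8 h, a log2 fold change of -3.79 ± 0.24.

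The 2 trios of neighbouring genes were grouped by hand as clusters of uncharacterized genes, though RefSeq gives that description for only some of them. All 6 were lower with both AvrRpm1 and AvrRpt2 than with EV at 8 h, with median log2 fold changes of -3.09 and -2.37. Of all genes, 17.2% and 15.2% were lower. The AvrRpm1 call of AT1G65490 (-1.26) was lost without replicate 3 (-0.95). AT1G65486 had 1.54 to 6.10 CPM at T0, 17.4 to 72.4 CPM (median 35.0) with EV and at most 2.83 CPM (median 1.01) with AvrRpm1 at 8 h. AT5G44572 had 0.769 to 1.96 CPM at T0, 124 to 289 CPM (median 204) with EV and 5.18 to 15.9 CPM (median 8.14) with AvrRpm1 at 8 h. In both genes the EV replicates stood above all T0 and all AvrRpm1 replicates. The log2 fold changes with AvrRpm1 were -4.46 ± 0.35 and -4.02 ± 0.26 (edgeR adjusted p = 1.59e-21 and 1.74e-26). AT1G65490 was the exception in the response to EV: it was 3.02 lower on the log2 scale at 8 h than at T0, where the other 5 genes were higher.

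The largest falls among the remaining genes were those of AT2G22122, described as an uncharacterized protein, AT5G10760, an aspartyl protease family gene with the synonym AED1, and ACL5, the thermospermine synthase of xylem development. AT5G10760 had 16.2 to 149 CPM (median 98.3) with EV, 2.79 to 28.0 CPM (median 8.62) with AvrRpt2 and 0.640 to 5.75 CPM (median 1.69) with AvrRpm1. Its log2 fold change with AvrRpm1 was -4.89 ± 0.41 (edgeR adjusted p = 3.63e-20), and AvrRpm1 was lower than AvrRpt2 by 2.33. AT2G22122 fell by 4.93 and ACL5 by 4.00 with AvrRpm1, against 3.43 and 1.29 with AvrRpt2. ACL5 overlaps a gene on the opposite strand.

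Genes of the cuticle were for the most part lower with AvrRpt2 than with AvrRpm1 at 8 h. Cuticular wax is built from very-long-chain fatty acids that ketoacyl-CoA synthases (KCS) elongate, and CER1 and CER3 act together to form its alkanes. Of the 8 wax, fatty acyl and lipid transfer genes, 2 were lower and 2 higher with AvrRpm1 than with EV at 8 h, 6 were lower with AvrRpt2, and in the direct comparison 6 were higher with AvrRpm1 and 1 was lower. Of all genes, 17.2% were lower and 21.2% higher with AvrRpm1, so 2 of 8 in each direction is near the background, 15.2% were lower with AvrRpt2, and 14.3% were higher and 7.01% lower in the direct comparison.

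CER1 had 11.4 to 45.5 CPM (median 28.0) with EV, 1.00 to 47.6 CPM (median 11.1) with AvrRpt2 and 14.1 to 180 CPM (median 53.4) with AvrRpm1 at 8 h, ranges that overlapped. Its log2 fold change was 1.88 ± 0.51 with AvrRpm1 against EV (edgeR adjusted p = 0.000664) and 2.55 ± 0.53 against AvrRpt2 (edgeR adjusted p = 2.14e-05). At 4 h the order was the reverse, with 36.2 to 176 CPM (median 96.2) for EV and 1.11 to 92.5 CPM (median 44.7) for AvrRpm1. The summed epidermis and cuticle markers were lower with it too at 4 h (median 3274 CPM with EV and 1353 CPM with AvrRpm1), as were those of mesophyll (7553 and 4522 CPM), guard cells (53.5 and 35.9 CPM) and vasculature (799 and 581 CPM). Some epidermis and cuticle markers are themselves among the genes selected for low values with AvrRpm1 at 4 h. The lower sum of that marker set at 4 h is therefore in part fixed by the selection. The part of the markers of these cell types in the values at 4 h was not tested. KCS3 rose by 1.13 ± 0.40 with AvrRpm1 against EV (edgeR adjusted p = 0.0097), a call that was lost without replicate 2, without replicate 3, without the libraries that went against their label and with total count scaling (0.65).

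CER3 had 54.0 to 139 CPM with EV, 10.09 to 60.2 CPM with AvrRpt2 and 23.04 to 149 CPM with AvrRpm1 at 8 h. Its log2 fold change was -1.15 ± 0.30 with AvrRpt2 and 0.13 ± 0.29 with AvrRpm1. The direct difference was 1.29 ± 0.30 (edgeR adjusted p = 0.00012), a call that was lost without replicate 3 (0.966). The lipid transfer protein genes LP1 and LTP2, which lie side by side on chromosome 2, were lower with AvrRpt2 by 1.84 and 1.93. With AvrRpm1 they had -0.63 ± 0.28 and -0.73 ± 0.44, neither of them a call, though both passed as lower with total count scaling (-1.12 and -1.20). FAR1, a fatty acyl reductase gene, was 1.09 ± 0.43 higher with AvrRpm1 than with AvrRpt2, a call lost without replicate 2 and without replicate 3, as was that of LTP2 (1.202 ± 0.45).

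KCS12 stood apart from the other wax genes. It had 56.8 to 232 CPM (median 89.0) with EV, 7.92 to 32.8 CPM (median 13.7) with AvrRpt2 and 0.473 to 4.61 CPM (median 1.94) with AvrRpm1 at 8 h, and the 3 ranges did not overlap. Its log2 fold change of -4.97 ± 0.41 with AvrRpm1 (edgeR adjusted p = 2.69e-20) was the lowest of the 150 genes. The 17 epidermis and cuticle markers, of which 4 are among the 150, summed to 797 to 2182 CPM with EV, 153 to 619 CPM with AvrRpt2 and 289 to 2150 CPM with AvrRpm1 at 8 h, with none at 0. Of these markers, 13 were higher with AvrRpm1 than with AvrRpt2 and none was lower, where 14.3% and 7.01% of all genes passed. Their part in the wax gene values was not tested.

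**Figure D3:**
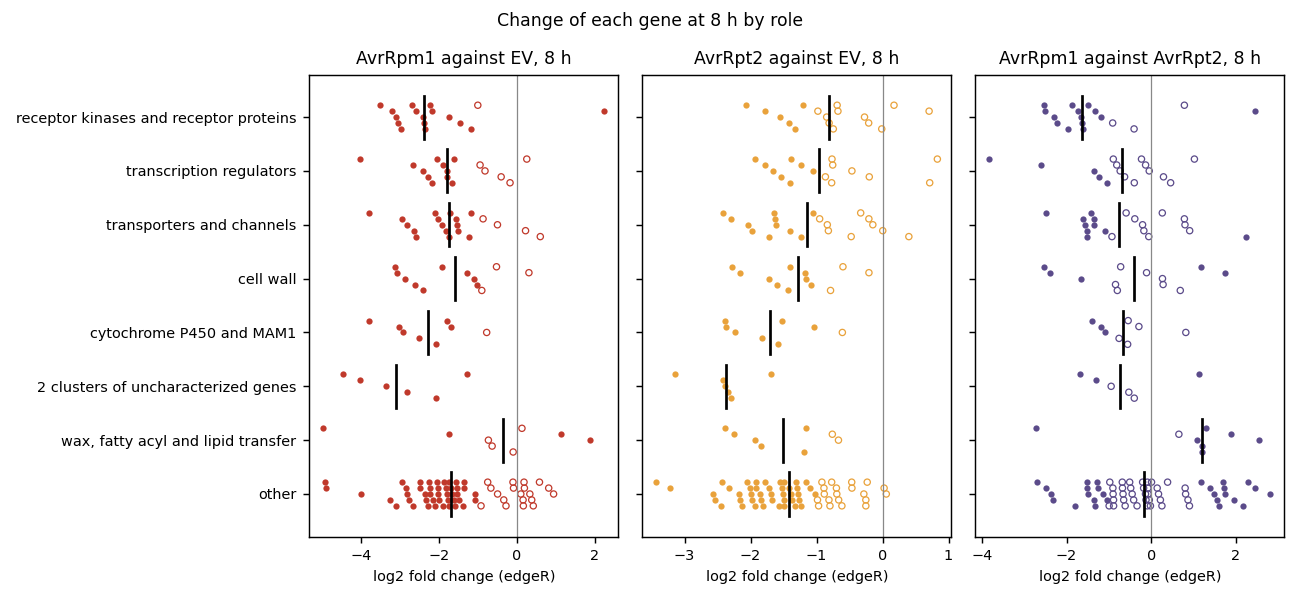
Log2 fold changes at 8 h of the 150 genes by role, for AvrRpm1 against EV, AvrRpt2 against EV and AvrRpm1 against AvrRpt2. Filled points passed the test, open points did not, and bars are medians. The receptor group has a median of -2.39, -0.81 and -1.63 in the 3 comparisons, and the wax group -0.36, -1.51 and 1.21.

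AvrRpt2 at 8 h lowered 96 of the 150 genes and raised none, where 29.9% of all genes passed, 15.2% as lower and 14.6% as higher, and the median was -1.35 against -0.07 for all genes. With total count scaling the median of all genes moved by -0.46, the share of lower genes among all calls went from 51.0% to 76.3%, and 126 of the 150 passed as lower. Values of single genes with AvrRpt2 against EV were not compared across the alternatives. Those just short of a call, such as RLK and STP4, may therefore depend on the scaling. For 69 genes all 12 AvrRpt2 replicates lay below all 12 EV replicates in CPM, against 20.1% of all genes, and for 42 in TMM-scaled CPM, against 5.88%. AvrRps4 at 8 h lowered 27 and raised 2, where 6.49% of all genes passed, 0.625% as lower and 5.86% as higher, and the median was -0.53. CER1 and KCS3 were the 2 that rose, by 1.59 ± 0.51 and 1.28 ± 0.41 (both edgeR adjusted p = 0.0165). The effector comparisons with EV at 8 h share the same EV replicates. Without the libraries that went against their label, the counts of genes called were 114 in place of 113 for AvrRpm1, 99 in place of 96 for AvrRpt2, 31 in place of 29 for AvrRps4 and 78 in place of 74 for AvrRpm1 against AvrRpt2.

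No difference between helperless and Col-0 was detected in the AvrRpm1 response of these genes. At 8 h AvrRpm1 lowered 101 of the 150 in Col-0 and raised none, lowered 100 and raised 1 in nrg1, lowered 97 and raised 2 in adr1, and lowered 101 and raised 1 in helperless. In all, 28.2% of genes passed in Col-0 and 35.3% in helperless. In the order of the genotypes above, 11.6%, 14.6%, 12.7% and 16.5% of all genes passed as lower and 16.6%, 16.7%, 19.4% and 18.7% as higher. The median log2 fold changes were -1.71, -1.66, -1.74 and -1.91. Without the libraries that went against their label, 98, 99, 88 and 101 genes were lower and 0, 1, 1 and 1 higher, with medians of -1.79, -1.64, -1.78 and -1.89. With total count scaling the share of lower genes among all calls rose from 41.0% to 68.1% in Col-0, from 46.6% to 72.9% in nrg1, from 39.6% to 66.9% in adr1 and from 46.9% to 74.5% in helperless. The test of the difference itself, the response in helperless minus that in Col-0, called none of the 150 with edgeR (2 at an unadjusted p under 0.05) or DESeq2, and 0.0102% of all genes with edgeR. It also called none of the 150 without the libraries that went against their label. For AvrRpt2 the same test called none of the 150 with either tool (0 at an unadjusted p under 0.05), and 0.00508% of all genes with edgeR. The AvrRpt2 difference had a median of 0.22 over the 150 genes (103 positive, 47 negative) and -0.06 over all genes. Median AvrRpt2 changes against EV were -1.16 in Col-0, -1.525 in nrg1, -1.38 in adr1 and -0.98 in helperless. The absence of calls does not show that the responses were equal. In untreated leaves, whose genotype the ADR1-L1 ratio does not check, helperless and Col-0 differed for none of the 150 by either tool (0 at an unadjusted p under 0.05) and for 0.0102% of all genes.

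For AvrRps4 at 8 h, the median log2 fold change against EV was -0.88 in Col-0, -0.71 in nrg1, -0.60 in adr1 and 0.06 in helperless, and the differences of nrg1 and adr1 from Col-0 were not tested. The helperless response minus that of Col-0 had a median of 1.07 over the 150 genes and 0.03 over all genes. It passed as higher for 6 of the 150 genes and as lower for none, where 1.75% of all genes passed, 0.188% as higher and 1.56% as lower, and 45 of the 150 had an unadjusted p under 0.05. OPT6 had 15.2, 8.53 and 14.4 CPM in Col-0 with AvrRps4 at 8 h and 88.9, 79.7 and 92.1 CPM with EV. In helperless it had 80.7, 105 and 152 CPM with AvrRps4 and 125, 139 and 71.0 CPM with EV. The Col-0 replicates separated the treatments, and the helperless replicates did not. The difference between the genotypes was 2.60 ± 0.72 on the log2 scale (edgeR adjusted p = 0.0327). Without the libraries that went against their label, 1 of the 6 calls was left, AT1G12500, and none was left without replicate 2 or without replicate 3.

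**Figure D4:**
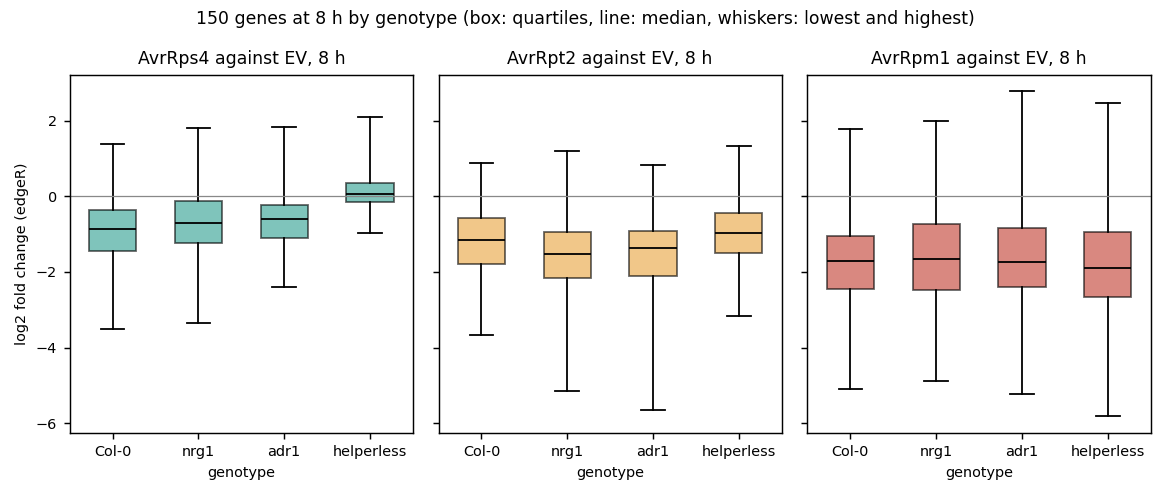
Boxes of the log2 fold changes of the 150 genes at 8 h against EV, for 3 effectors in 4 genotypes. The AvrRpm1 medians lie between -1.91 and -1.66 in every genotype, whereas the AvrRps4 median is -0.88 in Col-0 and 0.06 in helperless.

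Many of the 150 genes differed between leaves given the empty-vector strain and untreated leaves. T0 leaves were not infiltrated and were sampled at another time. The strain, the infiltration and the elapsed time therefore cannot be told apart. At 8 h, 69 were higher and 25 lower with EV than at T0, where 21.0% and 24.4% of all genes passed, and the median was 0.72 against 0.03. The rule asked for a minimum level and a high rank under EV at 4 h, so genes near 0 at T0 could enter only by being higher with EV, and the excess over all genes is in part fixed by the selection. With total count scaling the median of all genes moved by 0.30, the share of lower genes among all calls went from 53.8% to 42.5%, and the counts were 76 and 21. Among those that were higher were 11 of 17 receptor genes, 8 of 12 cell wall genes and 10 of 20 transporters, against 69 of the whole 150 and 21.0% of all genes. The largest values were those of AT1G05700, PDF1.4, a defensin-like gene, and PTR3. PDF1.4 had 0.096 to 1.05 CPM at T0 and 95.2 to 226 CPM with EV at 8 h, a log2 fold change of 8.07 ± 0.37 (edgeR adjusted p = 4.11e-38). AT1G05700 was near 0 at T0 (at most 0.145 CPM) and had 1.71 to 43.7 CPM with EV, so its fitted 8.32 ± 0.90 depends on how 0 counts are treated. Of the 69 genes that were higher, 55 were lower with AvrRpm1 than with EV at 8 h and 1 was higher. Of the 25 that were lower, 17 were lower again with AvrRpm1, and of the 56 without a call 38 were. These 2 comparisons share the EV replicates at 8 h, so the counts are a description.

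At 0.5 h EV raised 29 of the 150 genes and lowered 32 against T0, where 25.6% of all genes passed, 15.6% as higher and 10.0% as lower, and the counts were 24 and 59 with total count scaling, which moved the median of all genes by -0.54 and the share of lower genes among all calls from 39.1% to 67.9%. WRKY30 and WRKY53 were among the 3 largest rises. WRKY53 had 2.38 to 37.9 CPM (median 16.2) at T0 and 142 to 839 CPM (median 443) at 0.5 h, and then 65.4 to 180 CPM with EV at 4 h. The T0 and 0.5 h ranges did not overlap, and the log2 fold changes were 5.33 ± 0.33 for WRKY53, 6.99 ± 0.51 for WRKY30 and 5.17 ± 0.37 for ZF1. BBX15 fell from 283 to 487 CPM (median 348) at T0 to 3.12 to 19.2 CPM (median 7.11) at 0.5 h, a log2 fold change of -4.73 ± 0.47. RTFL16 and AT1G21050 had the next lowest values, -3.88 and -2.57. T0 and later samples also differ in the infiltration itself and in time, neither of which can be told apart from the bacteria. AvrRpm1 at 0.5 h differed from EV for 1 of the 150 genes, which was lower, where 0.168% of all genes passed as lower and 0.0203% as higher. That gene, AT5G59680, a leucine-rich repeat kinase gene named after its value was seen, had -1.31 ± 0.30 (edgeR adjusted p = 0.0184), and the call was lost without replicate 2.

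At 4 h, values against EV describe the samples that chose the genes. The median log2 fold change with AvrRpm1 was -1.09 over the genotypes, and in each genotype it lay between -1.16 and -1.01. With AvrRpt2 it was -0.45 and with AvrRps4 -0.27, and the latter was -0.01 in helperless. For 54 of the 150 genes all 12 AvrRpm1 replicates lay below all 12 EV replicates in CPM (6.84% of all genes). RLK had 333 to 788 CPM with EV and 66.4 to 194 CPM with AvrRpm1 at 4 h, and PMT6 657 to 1216 and 98.1 to 427 CPM. AvrRpt2 against AvrRps4 at 4 h, which does not use the EV replicates, passed for 7 of the 150: 6 were lower and 1 was higher, where 7.3% and 3.94% of all genes passed, so the share was no larger than among all genes. With total count scaling 21 passed, and the share of lower genes among all calls went from 65.0% to 84.6% as the median of all genes moved by -0.26. CYP79F1 (-1.86 ± 0.55), CYP83A1 (-1.56 ± 0.45) and MAM1 (-1.53 ± 0.47) were the lowest with AvrRpt2, with edgeR adjusted p-values of 0.0043, 0.00369 and 0.00658, and the MAM1 call was lost without replicate 1 (-1.001) and without replicate 2. NRT2.5 was the 1 gene higher with AvrRpt2 (1.098 ± 0.45, edgeR adjusted p = 0.0395), a call lost in 7 of 11 alternative settings. Without replicate 1 it was 0.07 (edgeR adjusted p = 0.927), so the difference rests on that replicate.

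Of the 27 genes on a list of pattern-triggered immunity markers, of which WRKY53 is among the 150, 21 were higher and none lower with EV at 8 h than at T0. With AvrRpm1 against EV 11 were higher and 2 lower, and with AvrRpm1 against AvrRpt2 1 was higher and 6 were lower. WRKY53 was 1 of the 2 that were lower with AvrRpm1 than with EV. Of all genes tested, 21.0% were higher and 24.4% lower with EV at 8 h than at T0. With AvrRpm1 against EV 21.2% were higher and 17.2% lower, and with AvrRpm1 against AvrRpt2 14.3% and 7.01%.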

How the data were processed

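RNA was selected with oligo(dT) beads and copied with random hexamers, per the labels' protocols. The deposited table holds raw read counts per gene and library. FastQC 0.11.7, Trimmomatic 0.36, HISAT2 2.1.0, featureCounts, Subread and the build TAIR10 are named in the submitters' processing notes. Libraries were grouped by the labels' genotype, time and treatment; libraries of one group and replicate number were summed before analysis.

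Levels are CPM of the replicate total. edgeR 4.0.16 (with limma 3.58.1, R 4.3.3) was fitted to all 52 groups with robust quasi-likelihood, filterByExpr and TMM factors (0.655 to 1.50), giving 19687 genes and 16 tested comparisons. p-values were Benjamini-Hochberg adjusted over all genes within a comparison. Log2 fold changes carry standard errors and come from this fit, so they need not equal ratios of CPM medians. Comparisons averaged over genotypes weight the 4 equally. The model was run on counts simulated for the AvrRpm1 and EV groups at 8 h. Every gene had the same spread, and planted rises and falls were equal in number. This run checks the steps and does not cover the scaling shifts of the real counts.

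Alternatives were RLE size factors, DESeq2 1.42.0, no filter on low counts, unsummed libraries, only the groups compared, a replicate block, each replicate left out, and the libraries against their label left out. Total count scaling was added after seeing the data. The selection was repeated with a minimum of 20 CPM, a pseudocount of 5 and TMM-scaled CPM.

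Of 25320 gene IDs, 24966, with all 150 members, matched RefSeq TAIR10.1, whose gene names, positions and promoter sequences were used. Genes were named by a fixed rule: the lowest ranks, the highest levels under EV at 4 h, members on pathway or cell type lists, the largest changes in each direction, and families with at least 4 members. Exceptions are stated. Roles were assigned by hand. The members, roles and lists were chosen with earlier results of these data known. Replicate totals are given in the report, and values near 0 CPM rest on few counts.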

Additional observations from a re-analysis of the deposited data

Results flagged for a closer look

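For 6 of the 150 genes, the AvrRps4 response at 8 h (AvrRps4 minus EV) differed between helperless and Col-0 in a test of the difference itself, with the response higher in helperless. The log2 differences ± SE and edgeR adjusted p-values were 2.60 ± 0.72 and 0.0327 for OPT6, 2.88 ± 0.82 and 0.0399 for AT1G65486, 2.51 ± 0.67 and 0.0247 for UGT72E1, a glucosyltransferase gene. They were 1.76 ± 0.47 and 0.0258 for AT3G28200, a peroxidase family gene, 1.72 ± 0.35 and 0.0012 for AT1G12500, a nucleotide-sugar transporter family gene, and 1.99 ± 0.46 and 0.00646 for AT5G58900, a homeodomain-like regulator gene. The last 4 are named because they passed this test. Over 11 alternative settings the adjusted p of OPT6 ran from 0.000439 to 0.513, with 8 of 11 under 0.05, and that of AT1G12500 from 1.76e-06 to 0.194, with 9 of 11.

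AT1G12500 had 11.2, 9.91 and 8.82 CPM in Col-0 and 28.0, 39.9 and 41.8 CPM in helperless with AvrRps4, against 36.8, 36.1 and 45.8 CPM and 37.5, 41.7 and 37.0 CPM with EV. Replicate 3 under EV at 8 h went against its label in both genotypes. Without the libraries against their label, AT1G12500 had 1.60 with an adjusted p of 0.0462, and the other 5 genes kept their direction with adjusted p-values of 0.115 to 0.371.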

How the results depend on the processing

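For 13 of the 16 comparisons, the number of the 150 genes called stayed within 1.5 times under every alternative, and no called value of a named gene changed sign. For AvrRpt2 against AvrRps4 at 4 h, total count scaling gave 21 genes in place of 7, and leaving out 1 replicate gave 6 to 27. For AvrRpm1 against EV at 0.5 h, unsummed libraries gave 2 genes in place of 1, a fit of only the groups compared gave 0, and leaving out 1 replicate gave 0 to 2. For the AvrRps4 response in helperless minus Col-0, the 6 genes became 1 without the libraries against their label, 41 with unsummed libraries, and 0 to 7 with 1 replicate left out. Unsummed libraries of 1 replicate were treated as separate samples. The selection kept 76 to 91 of the 150 with 1 replicate left out, 142 with TMM-scaled CPM, 119 with the higher minimum, 112 with the larger pseudocount and 143 without the libraries against their label. The cause of these changes was not tested. The replicate numbers were not taken to pair the samples: of 36 same-numbered sample pairs in 12 pairs of groups, 17 had deviations correlated over 0.1 (range -0.42 to 0.49), with all 3 pairs over 0.1 for AvrRpm1 and EV at 8 h in nrg1, where the block gave 103 genes. With the replicate block, AvrRpm1 against EV at 8 h gave 113 genes, AvrRpt2 96, AvrRps4 30 and AvrRpm1 against AvrRpt2 73. Of 1584 values recomputed for single genes, 1519 kept their direction and call, 49 were no longer called and 16 became calls.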
